A study of Ovis aries with 9 samples.

Results

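Fragments of the nuclear alanine tRNAs (tRNA-Ala) were described in sperm from F1 rams whose mothers had been fed differently. A sequence was taken as a member if its annotation named mature-tRNA-Ala-AGC, mature-tRNA-Ala-CGC, mature-tRNA-Ala-TGC or mature-tRNA-Ala-GGC in the sense direction, whatever its end, and a sequence that named several of them was summed once. This gave 950 sequences of 3309646 distinct sequences in the tables, and of 34386 that named a nuclear tRNA. All 4 tRNA-Ala names were found among 76 nuclear and mitochondrial tRNA names. The amino acid was chosen by its measured level, known to be higher in OVER, so the ratios below are descriptions without a test.

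The rams were labelled wild type (WT), the source was semen, and the groups were CON (standard feeding), OVER (over feeding) and RES (restricted feeding), each with 3 deposited tables. Before RNA extraction the sperm had been kept in a detergent buffer that lyses somatic cells, and small RNAs of 15 to 50 nt were selected. The 3 tables of each group held the same sequences, the same read numbers and the same genome flags. Each group was therefore counted as 1 library, with 9983895 reads in the CON, 8287937 in the OVER and 13160116 in the RES library, and the spread between rams could not be measured. Levels are reads per 1000000 reads of the library (RPM), and the intervals are exact 95% intervals for counting error only. The libraries differed in overall length: reads of 15 to 20 nt made up 5.98% of CON, 29.6% of OVER and 10.3% of RES.

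Transfer RNAs bring amino acids to the ribosome, and the anticodon (AGC, CGC, TGC or GGC here) reads the alanine codons. Mature tRNAs carry a CCA tail at the 3′ end that is added after transcription, and cuts in the loops of the cloverleaf release 5′, internal and 3′ fragments. The 5′ fragments of tRNA-Ala and tRNA-Cys start with a run of G. In other cells some 5′ fragments of these tRNAs, not necessarily of the lengths found here, are known to form G-quadruplexes and to repress translation under stress. Neither was tested for the fragments described here. In sperm, 5′ fragments of tRNA-Gly, -Glu, -Lys, -Val and -His are the better known classes, described in rodents as responsive to paternal diet.

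The tRNA-Ala fragments were short 5′ pieces with a run of G at the start, in 2 main forms that differ by A5G, counted from the 5′ end. The sequences below are shown because their values are given further down. Capitals mark base 5 in the 5′ pieces and the CCA tail in the last.
24 nt, A at base 5: ggggAtgtagctcagtggtagagc
24 nt, G at base 5: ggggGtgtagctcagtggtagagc
23 nt, A at base 5: ggggAtgtagctcagtggtagag
23 nt, G at base 5: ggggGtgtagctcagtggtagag
15 nt, A at base 5: ggggAtgtagctcag
15 nt, G at base 5: ggggGtgtagctcag
22 nt, CCA end: tcgatccccggcatctccaCCA
A start of 4 G was found in 88.3% of tRNA-Ala reads in the CON, 87.1% in the OVER and 85.7% in the RES library. Among other nuclear tRNA reads it was found in 0.208%, 0.0973% and 0.167%. Within these, tRNA-Cys-GCA reads that did not name tRNA-Ala had it in 84.1%, 38.4% and 66.6%. The A form without regard to length stood at 112 RPM in the CON, 686 in the OVER and 134 in the RES library, and the G form at 79.6, 469 and 131.

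tRNA-Ala fragments were a small class that was higher in OVER. They amounted to 263 RPM in CON (2628 reads), 1534 RPM in OVER (12714 reads) and 368 RPM in RES (4849 reads). OVER was thus 5.83-fold above CON, a log2 ratio of 2.54 (2.48 to 2.60), and 4.16-fold above RES, a log2 ratio of 2.06 (2.01 to 2.11). RES was 1.40-fold above CON, a log2 ratio of 0.49 (0.42 to 0.55). Of all nuclear tRNA reads the alanine tRNAs held 0.102% in the CON, 1.26% in the OVER and 0.219% in the RES library. These ratios depend on the length of the reads. With rates taken per read of the same length and weighted by the CON length distribution, OVER against CON was 0.98 on the log2 scale, and RES against CON was -0.07, the other direction. What the short reads of the OVER library contributed beyond this was not tested, and in bulk samples fewer cells of a type and less RNA per cell cannot be told apart.

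The isoacceptors, the tRNAs with different alanine anticodons, could hardly be told apart, because 82.6 to 87.5% of the reads named AGC, CGC and TGC together. mature-tRNA-Ala-AGC was at 251 RPM in the CON, 1439 in the OVER and 346 in the RES library. mature-tRNA-Ala-TGC was at 231, 1429 and 325 RPM, and mature-tRNA-Ala-CGC at 225, 1373 and 309.8 RPM, in the same order of libraries. mature-tRNA-Ala-GGC was rare, with 3.11, 15.2 and 5.47 RPM, and no read named it alone. For OVER against CON the 4 log2 ratios lay between 2.29 and 2.63, and they ranked 4, 5, 6 and 8 from the highest among 70 tRNAs, whose median was 0.61. All 4 were at least 2-fold higher in OVER, as were 35.7% of the 70 tRNAs. For RES against CON the ratios lay between 0.46 and 0.82 against a median of -0.02 over all tRNAs, and none of the 4 reached 2-fold (7.14% of tRNAs were at least 2-fold higher). For OVER against RES they lay between 1.47 and 2.15 against a median of 0.46, all at least 2-fold higher, as were 28.2% of 71 tRNAs.

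Reads that named a single isoacceptor gave a less even picture. Those of tRNA-Ala-TGC alone were at 5.41 RPM in the CON, 66.4 in the OVER and 14.4 in the RES library, a log2 ratio of 3.62 (3.21 to 4.05) for OVER and 1.41 (0.97 to 1.87) for RES against CON. Those of tRNA-Ala-AGC alone were at 21.2, 54.9 and 21.6 RPM, a log2 ratio of 1.37 (1.13 to 1.61) for OVER and 0.02 (-0.24 to 0.29) for RES. The intervals of TGC and AGC did not overlap in either comparison. Reads of tRNA-Ala-CGC alone numbered 11, 23 and 1.

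The reads also overlapped other amino acids. tRNA-Cys-GCA was named by 36.0% of tRNA-Ala reads in the CON, 42.7% in the OVER and 41.3% in the RES library, and tRNA-Thr-TGT by 28.8%, 49.1% and 20.4%. Sequences that named no RNA but tRNA-Ala stood at 104 RPM in the CON, 427 in the OVER and 152 in the RES library. Their log2 ratio was 2.04 (1.94 to 2.14) for OVER against CON and 0.55 (0.44 to 0.66) for RES against CON.

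The length profile had a peak at 24 nt and one at 15 to 16 nt. Fragments of 25 nt or less made up 96.5% of tRNA-Ala reads in the CON, 99.1% in the OVER and 99.1% in the RES library. Other nuclear tRNAs had 3.44%, 17.1% and 8.51% of their reads at these lengths and were commonest at 30 nt in all 3 libraries. The commonest tRNA-Ala length was 24 nt in CON and RES and 16 nt in OVER. tRNA-Cys-GCA, which also starts with a run of G, was commonest at 33, 32 and 33 nt in CON, OVER and RES among the reads that did not name tRNA-Ala. Short length was not particular to tRNA-Ala. The tRNA-Thr reads that did not name tRNA-Ala numbered 296, 680 and 410. Of these, 73.0%, 92.1% and 79.8% were of 25 nt or less, and the commonest length was 15 nt in each library.

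**Figure D1:**
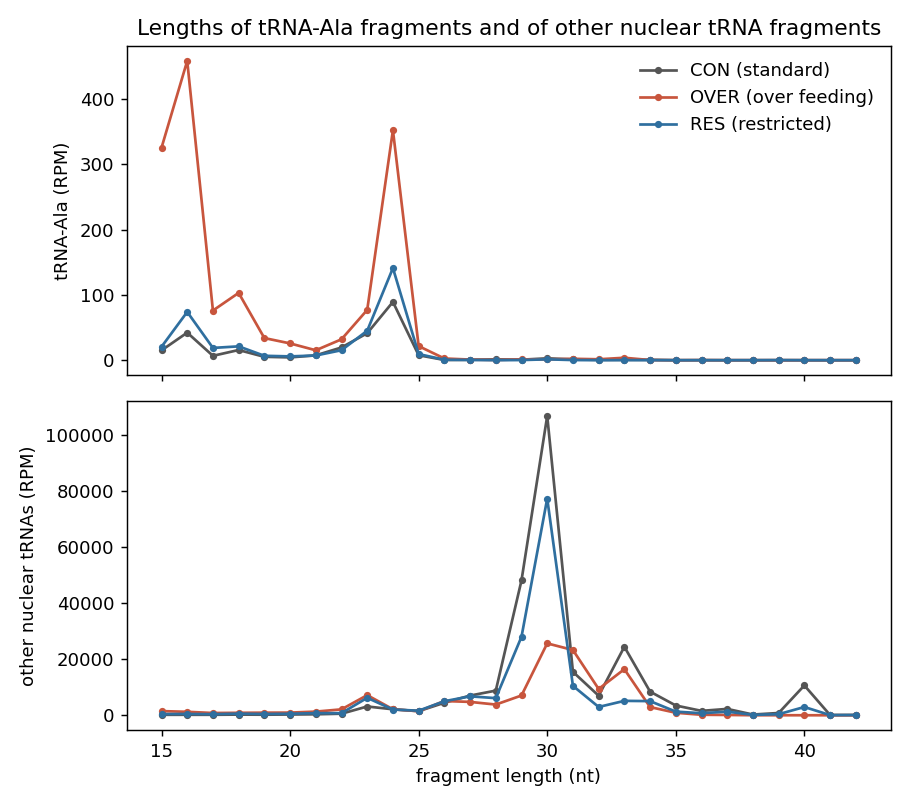
RPM of tRNA-Ala fragments (top) and of all other nuclear tRNA fragments (bottom) by fragment length in nt, with 1 library per group. tRNA-Ala peaks at 24 nt and at 15 to 16 nt, and the other tRNAs peak at 30 nt.

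At 24 nt tRNA-Ala was higher in OVER, while the other nuclear tRNAs of that length were level in sum, though not sequence by sequence. tRNA-Ala had 891 reads of 24 nt in the CON, 2919 in the OVER and 1857 in the RES library, a log2 ratio of RPM of 1.98 for OVER and 0.66 for RES against CON. The other nuclear tRNAs at 24 nt were at 2141, 2143 and 2045 RPM, a log2 ratio of 0.00 (-0.03 to 0.03) and -0.07 (-0.09 to -0.04). As a share of all reads of 24 nt, tRNA-Ala was 3.02-fold higher in OVER and 1.28-fold higher in RES than in CON. At 25 nt, with 76, 179 and 124 reads, tRNA-Ala per reads of that length was also higher in OVER, with a log2 ratio of 1.66 (1.26 to 2.07), and in RES it was -0.02 (-0.44 to 0.42). The other nuclear tRNAs at 25 nt had -0.01 (-0.05 to 0.02) for OVER. At 23 nt the levels were 41.3, 77.0 and 45.1 RPM, and per reads of that length the log2 ratio was -0.10 (-0.28 to 0.08) for OVER and -0.18 (-0.37 to 0.00) for RES. The other nuclear tRNAs were not level at 23 nt, with log2 ratios of RPM of 1.20 for OVER and 0.99 for RES, beside 0.90 and 0.13 for tRNA-Ala. At 22 nt they had 1.91 for OVER, beside 0.71 for tRNA-Ala. Per reads of 22 nt, tRNA-Ala was below CON in OVER, with a log2 ratio of -0.71 (-0.99 to -0.44).

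Single sequences showed the same step of 1 base between 23 and 24 nt. The 24 nt A form named tRNA-Ala only, and the 23 nt A form also named tRNA-Thr-TGT. The G forms of 22, 23 and 24 nt also named tRNA-Cys-GCA. The 24 nt A form was at 39.9 RPM in the CON, 129 in the OVER and 60.6 in the RES library. The 23 nt A form, the same sequence without its last c, was at 14.4, 19.2 and 15.5 RPM. Their log2 ratios for OVER against CON were 1.70 (1.53 to 1.87) and 0.41 (0.08 to 0.75). The 24 nt G form was at 26.4, 125 and 39.1 RPM, and the 23 nt G form had 170, 355 and 227 reads. Their log2 ratios for OVER against CON were 2.24 (2.04 to 2.44) and 1.33 (1.06 to 1.60). The 22 nt G form, shorter by another base, was at 6.41, 16.2 and 5.24 RPM. In RES both 24 nt forms were about as far above CON, with log2 ratios of 0.60 (0.43 to 0.78) and 0.57 (0.35 to 0.79), while the 23 nt forms had 0.10 (-0.21 to 0.42) and 0.02 (-0.27 to 0.31).

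**Figure D2:**
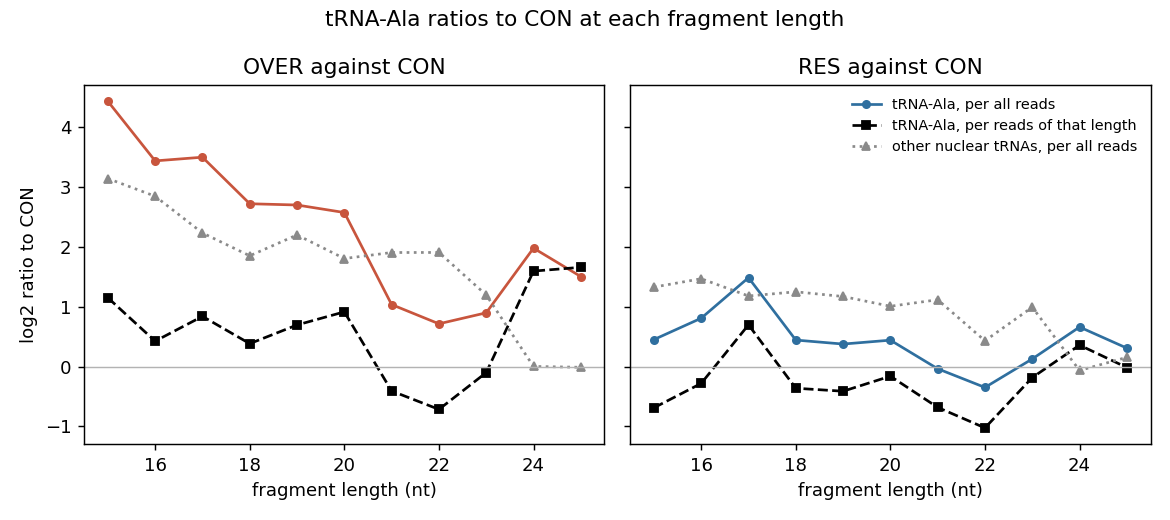
Log2 ratio of OVER (left) and RES (right) to CON by fragment length in nt, for tRNA-Ala per all reads, tRNA-Ala per reads of that length, and other nuclear tRNAs per all reads. In OVER the tRNA-Ala ratio per all reads is lower at 22 nt than at 15 nt, and at 24 nt it is 1.98 where the other tRNAs are at 0.00. At 23 nt it is 0.90 where the other tRNAs are at 1.20.

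Counted by sequence, 24 of 26 tRNA-Ala sequences with at least 100 reads in OVER and CON together stood 2-fold or more above CON, and 0 were 2-fold below it. Of all nuclear tRNA sequences 30.2% were that far above CON and 45.6% that far below. Of those of 15 to 25 nt that were not tRNA-Ala, 58.0% were that far above CON and 5.73% that far below. At 24 nt 14.3% of the other 35 sequences were 2-fold or more below CON. The share above CON at 24 nt was 25.7% for those 35 and 6 of 6 for tRNA-Ala. For RES against CON the share above over all lengths was 3 of 11 tRNA-Ala sequences, beside 12.7% of all nuclear tRNA sequences and 46.0% of the short ones. For OVER against RES it was 23 of 28, beside 28.4% and 35.1%. The sequences of one tRNA overlap each other and are not independent. tRNA-Ala was chosen as higher in OVER, and a sequence could pass the limit of 100 reads through OVER alone. One of 17 nt did so with 4 reads in CON and 246 in OVER. The counts for OVER therefore describe the choice and are not support for it.

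The shortest fragments made up most of the RPM difference between OVER and CON, but less than the rest of the lengths did between RES and CON. Those of 15 to 17 nt were at 63.9 RPM in the CON, 859 in the OVER and 113 in the RES library, or 24.3%, 56.0% and 30.7% of tRNA-Ala reads. The 15 nt A form was at 4.81, 128 and 3.65 RPM, and the 15 nt G form at 1.10, 85.2 and 4.48 RPM, which was 26.7-fold and 77.3-fold higher in OVER than in CON. These sequences were named for their abundance or ratio, and both also named tRNA-Cys-GCA and tRNA-Thr-TGT. All tRNA-Ala reads of 15 nt together were 21.6-fold higher in OVER, and those of other nuclear tRNAs 8.84-fold. Per reads of 15 nt, tRNA-Ala was 2.22-fold higher in OVER, and in RES its log2 ratio was -0.69 (-0.98 to -0.39).

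A sequence of 15 or 16 nt names its source poorly, and the longer reads with the same start were examined for this. Of reads of 22 nt or more that start with the 15 nt A form, 79.9% in the CON, 89.3% in the OVER and 84.3% in the RES library named tRNA-Ala or lacked 1 or 2 bases of a tRNA-Ala sequence. For the 15 nt G form the share was 20.5%, 82.4% and 37.6%, and 41.7%, 6.21% and 32.2% of the longer reads named another RNA. The most abundant tRNA-Ala sequence in OVER was the A form of 16 nt that ends in A, with 10.3 RPM in the CON, 189 in the OVER and 5.55 in the RES library. None of the 81, 110 and 31 longer reads with that start in CON, OVER and RES named tRNA-Ala, and all were without annotation and without a genome match. The 16 nt A form that ends in C was at 14.7, 38.1 and 16.1 RPM, and 93.5%, 88.5% and 96.4% of its longer reads were without annotation or genome match. The 16 nt A form that ends in T, as the 24 nt A form continues, was at 1.70, 70.0 and 1.29 RPM, and 90.8%, 94.7% and 89.9% of its longer reads were tRNA-Ala or its forms lacking bases. The 16 nt A forms that end in A, C and T all also named tRNA-Thr-TGT. With members under 22 nt left out, tRNA-Ala stood at 167 RPM in the CON, 497 in the OVER and 214 in the RES library, a log2 ratio of 1.58 (1.49 to 1.66) for OVER and 0.36 (0.27 to 0.45) for RES against CON.

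One short sequence was high in RES. The 16 nt G form that ends in G was at 3.21 RPM in the CON, 16.2 in the OVER and 25.5 in the RES library, a log2 ratio of 2.99 (2.46 to 3.56) for RES against CON. This sequence also named tRNA-Cys-GCA. Of longer reads with that start, 5.02% in the CON, 49.6% in the OVER and 10.4% in the RES library were tRNA-Ala or its forms, and 52.9%, 22.7% and 48.2% named another RNA. A further sequence, of 17 nt with another start, was at 0.401, 29.7 and 2.13 RPM, 74.1-fold higher in OVER than in CON from 4 reads in CON.

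Most of the difference lay in fragments with the 5′ end, while the sum of those with the CCA end was between 9.01 and 11.1 RPM. Fragments with the 5′ end were at 239 RPM in the CON, 1456 in the OVER and 337 in the RES library, or 90.9% (89.7 to 92.0), 94.9% (94.5 to 95.3) and 91.4% (90.5 to 92.1) of tRNA-Ala reads. Those with the CCA end were at 9.01, 9.53 and 11.1 RPM, a log2 ratio of 0.08 (-0.37 to 0.53) for OVER and 0.30 (-0.09 to 0.69) for RES against CON. The intervals of both CCA ratios include 0, and the OVER interval lies below the 5′ ratio of 2.61 (2.54 to 2.67). Internal fragments were at 14.3, 67.1 and 20.1 RPM, a log2 ratio of 2.23 (1.96 to 2.50) for OVER. The most abundant internal sequence in CON had 6, 5 and 0 reads. Fragments with the 3′ end before the CCA tail had 3 reads in CON, 0 in OVER, which allows up to 0.362 RPM, and 5 in RES. Within the CCA class the lengths differed. CCA fragments of 15 nt had 6, 30 and 10 reads, a log2 ratio of RPM of 2.59 (1.30 to 4.15) for OVER against CON, and those of 22 nt had 44, 16 and 60 reads, with -1.19 (-2.12 to -0.34). The 22 nt CCA sequence printed above had 25 reads in the CON, 3 in the OVER and 31 in the RES library, or 2.50, 0.362 and 2.36 RPM.

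**Figure D3:**
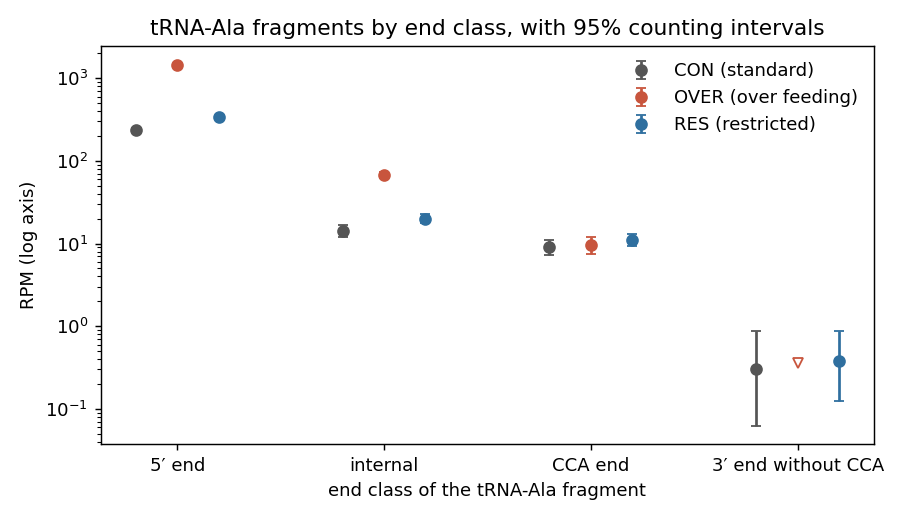
RPM (log axis) of tRNA-Ala fragments by end class in the 3 libraries, with exact 95% counting intervals; the open triangle is the level that 0 reads allow (3 reads). OVER is highest in the 5′ and internal classes, and the sums of the CCA class lie between 9.01 and 11.1 RPM.

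Longer 5′ fragments, which reach toward the anticodon loop, were rare among the annotated reads and rarest in RES. Annotated 5′ fragments of 28 nt or more had 58 reads in the CON, 83 in the OVER and 16 in the RES library. The log2 ratio of RPM was 0.79 (0.28 to 1.30) for OVER and -2.26 (-3.15 to -1.44) for RES against CON. Other nuclear tRNA reads of 30 to 35 nt were 64.0%, 65.4% and 60.8% of their class in CON, OVER and RES. For tRNA-Ala this share was 2.25%, 0.574% and 0.495%.

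Beside the annotated reads the tables held unannotated reads equal to a tRNA-Ala 5′ fragment of 22 nt or more except for 1 or 2 missing bases inside it. They had no genome match and are not members by the rule. Capitals mark where the bases were missing, and in the last sequence any 2 neighbouring bases of the capitals give the same read.
24 nt A form, T19 missing in the shorter read: ggggatgtagctcagtggTagagc
24 nt G form, T19 missing in the shorter read: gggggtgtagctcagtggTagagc
33 nt G form, 2 bases missing in the shorter read: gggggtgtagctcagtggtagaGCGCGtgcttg
The A form without its base 19 was at 18.9 RPM in the CON, 89.5 in the OVER and 40.7 in the RES library. It made up 32.2% (28.4 to 36.1), 40.9% (38.7 to 43.2) and 40.2% (37.6 to 42.9) of the reads of the pair. The G form without its base 19 was at 10.4, 67.2 and 18.3 RPM, or 28.3%, 35.1% and 31.9% of the pair. The complete 24 nt G form also named tRNA-Cys-GCA, so its reads lacking a base cannot be assigned to tRNA-Ala alone. The 33 nt G form was read mostly without 2 bases, with 71 reads against 3 complete ones in CON, 180 against 26 in OVER and 2 against 0 in RES. All 94 such sequences together were at 66.5 RPM in the CON, 269 in the OVER and 84.3 in the RES library, a log2 ratio of 2.02 (1.89 to 2.15) for OVER and 0.34 (0.20 to 0.48) for RES against CON.

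With these reads added, 5′ fragments of 28 nt or more were at 22.4 RPM in the CON, 48.3 in the OVER and 2.51 in the RES library. OVER was 2.15-fold above CON, a log2 ratio of 1.11 (0.87 to 1.35), and RES 8.95-fold below CON, a log2 ratio of -3.16 (-3.74 to -2.63). The reads lacking bases were 74.1% (67.9 to 79.7) of them in CON, 79.2% (74.9 to 83.1) in OVER and 51.5% (33.5 to 69.2) in RES. For the 24 nt 5′ fragments the share was 29.8% (27.2 to 32.4), 34.9% (33.5 to 36.4) and 32.6% (30.8 to 34.4). An order with OVER highest and RES lowest was not particular to tRNA-Ala. Other nuclear tRNAs of 31 nt were at 15485 RPM in the CON, 23256 in the OVER and 10483 in the RES library. At 32 nt they were at 6969, 9379 and 2964 RPM. At 33 nt they were at 24412, 16427 and 5139 RPM, with OVER also below CON. At 28 to 30 nt and at 34 nt OVER was the lowest library for them. MicroRNAs of epithelium, of which 3 of 5 listed names were annotated (miR-200a, miR-200b and miR-200c), summed to 464 RPM in the CON, 1094 in the OVER and 134 in the RES library, the same order as the long tRNA-Ala fragments. Their part in the result was not tested. Of 5 names listed for the germ line, 2 were annotated (miR-191 and miR-22), and these summed to 4802, 9139 and 8392 RPM. The listed names miR-34c, miR-34b and miR-449a were not found in the annotation. The sum is therefore not read as a germ line level, and the list could not be used to check the sperm label. The one white blood cell name found of 3 (miR-150) was at 1.20 to 2.81 RPM, and 0 of 2 red blood cell names were found.

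**Figure D4:**
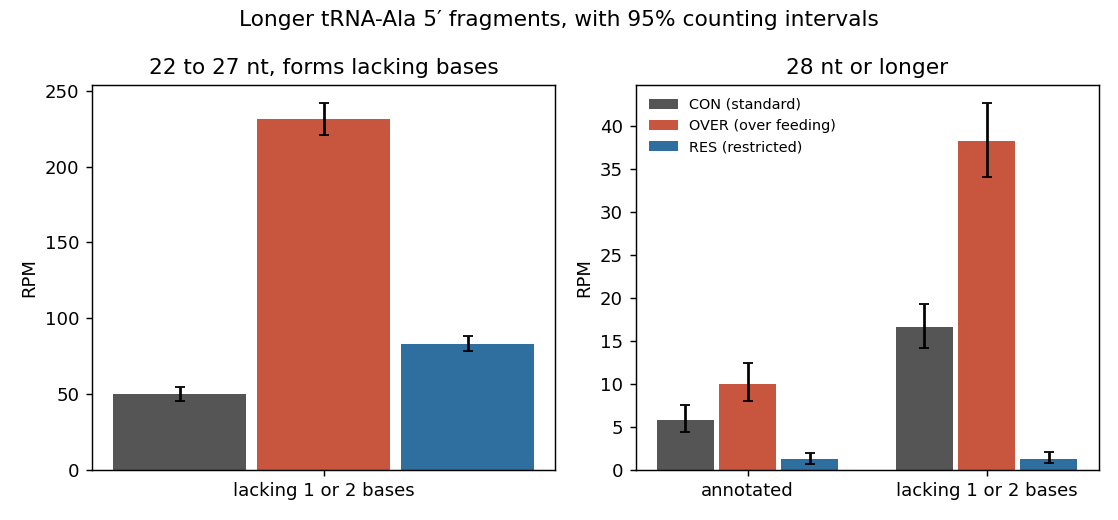
RPM of unannotated reads lacking 1 or 2 bases of a 22 to 27 nt tRNA-Ala 5′ fragment (left), and of annotated and base-lacking 5′ fragments of 28 nt or more (right), with exact 95% counting intervals. At 28 nt or more OVER is highest and RES lowest in both classes.

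Among 23 nuclear tRNA groups by amino acid, tRNA-Thr had the pair of ratios to CON nearest to tRNA-Ala. Its log2 ratios were 2.98 for OVER and 0.01 for RES, at a distance of 0.65 from those of tRNA-Ala, but most of its reads also named tRNA-Ala. Without those, tRNA-Thr was at 29.6 RPM in the CON, 82.0 in the OVER and 31.2 in the RES library, with log2 ratios of 1.47 and 0.07. The initiator tRNA-iMet, which shared no read with tRNA-Ala, was the second nearest, at 93.9 RPM in the CON, 285 in the OVER and 120.3 in the RES library, with log2 ratios of 1.60 and 0.36. The tRNAs annotated Sup, tRNA-Met and tRNA-Tyr came next, at distances of 1.31, 1.37 and 1.59. Grouping by amino acid hides single tRNAs with pairs of ratios nearer to tRNA-Ala than that of tRNA-Thr. tRNA-Arg-TCT had log2 ratios of 2.79 for OVER and 0.42 for RES. tRNA-Ser-GGA, with 57 reads in CON, had 2.29 and 0.46. Reads that also named tRNA-Ala were not taken out of these values. Both ratios of each group share the CON library.

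The other groups of interest did not share the level of tRNA-Ala in OVER. tRNA-Cys, the other one with a run of G, had a log2 ratio of 0.33 for OVER against CON with the shared reads and -1.37 without them. The ratios by amino acid are not matched for length. Of tRNA-Cys-GCA reads not naming tRNA-Ala, 83.6% in CON were of 30 to 35 nt, beside 2.25% of tRNA-Ala reads. At 30 nt the nuclear tRNAs other than tRNA-Ala had a log2 ratio of -2.06 for OVER against CON. tRNA-Ala reads that also named tRNA-Cys-GCA had 2.79. Of the 5 amino acids described in rodent sperm under paternal diets, tRNA-Lys (0.83) and tRNA-Val (0.25) were above CON in OVER, and tRNA-Gly (-0.29), tRNA-His (-0.80) and tRNA-Glu (-2.43) were below. In RES all 5 were below CON, with a median log2 ratio of -0.77. Over all 23 groups the median was 0.35 for OVER, with 15 above CON, and -0.15 for RES, with 6 above.

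**Figure D5:**
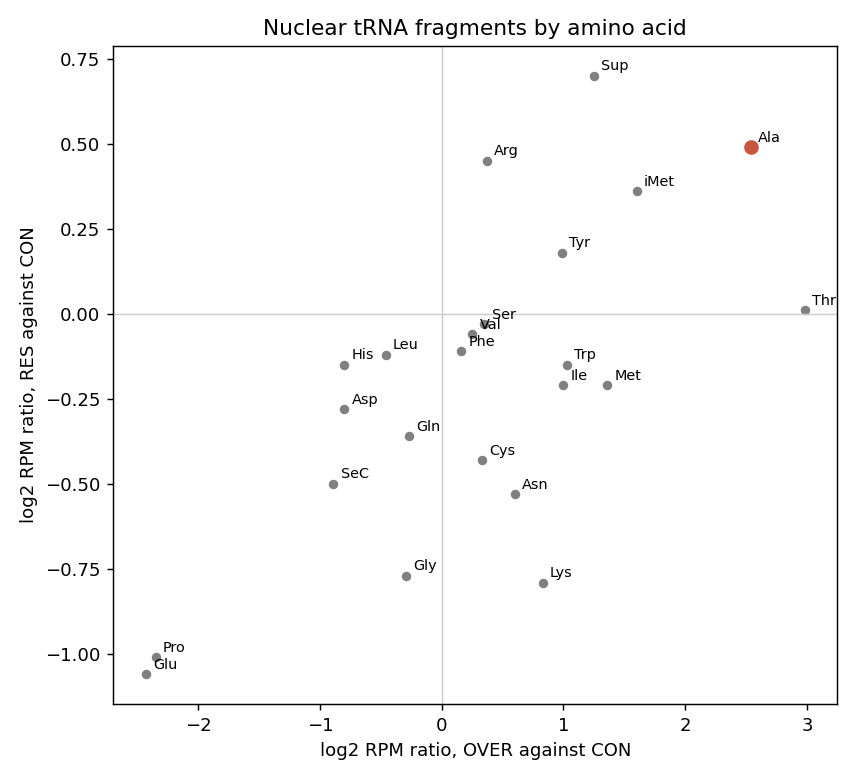
Log2 RPM ratio of OVER (x axis) and RES (y axis) to CON for the 23 nuclear tRNA groups by amino acid, 1 point each, with shared reads counted in every group they name. tRNA-Ala (red, 2.54 and 0.49) lies beside tRNA-Thr and tRNA-iMet, and tRNA-Glu and tRNA-Pro lie at the opposite corner.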

How the data were processed

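Small RNA of ram sperm was measured in 9 deposited tables, 3 for each feeding group. Per the file headers, each table gives the sequence, its length, its read count, a genome match flag and an annotation, and the deposited counts are whole numbers that were not normalized. Per the labels' protocols, libraries were made with the NEBNext Small RNA kit and run on a NovaSeq; the submitters' processing notes name edgeR, and the build, the aligner and the program that annotated reads were not given in the sources used here. Tables within a group were compared first. Their read counts were identical and their annotation sets differed in at most 3 sequences, so the first table of each group was used and no between-group test (the planned edgeR quasi-likelihood fit) was possible.

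Counts were divided by all reads of the library. Ratios and shares carry exact binomial 95% intervals (scipy 1.17.1). In ratios, 3 reads stood in for a count of 0. A tRNA or sequence was called apart at 2-fold, given 100 or more reads summed over the 2 libraries. The ratio code was tested on simulated counts. Named sequences were the 5 most abundant in each library, the most abundant of each end class in CON, and the 3 with the largest and smallest ratio per comparison at a mean RPM of at least 10. Not all sequences named by this rule are printed. Nearest amino acids were ranked by Euclidean distance of the 2 log2 ratios to CON. edgeR 4.0.16 and DESeq2 1.42.0 gave alternative scalings over tRNAs. The members and lists were chosen with earlier results of these data known.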

Additional observations from a re-analysis of the deposited data

Results flagged for a closer look

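The 5′ fragments of 28 nt or more, with the reads lacking 1 or 2 bases, differed from CON in opposite directions in the OVER and RES libraries, with log2 RPM ratios of 1.11 and -3.16. Other nuclear tRNAs had the same directions at 31 and 32 nt but not at 28 to 30, 33 or 34 nt. The difference was not tested, since each group holds 1 library.

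The unannotated reads lacking 1 or 2 bases of a tRNA-Ala fragment lie outside the annotated measurement. They reached 269 RPM in OVER and 66.5 RPM in CON.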

How the results depend on the processing

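No paired analysis was possible because the 3 tables of each group are identical in their reads. For the same reason, leaving out each table in turn could not change the log2 ratios and was no check of their stability. They were 2.54, 0.49 and 2.06 (OVER against CON, RES against CON, OVER against RES, the order used below). The alternatives reads of 22 nt or longer, reads of 24 nt and length-matched rates were chosen after seeing the data.

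With annotated reads as the denominator the ratios were 2.42, 0.25 and 2.16, and with nuclear tRNA reads 3.63, 1.11 and 2.53. TMM over tRNAs gave 2.16, 0.52 and 1.65, and DESeq2 size factors 1.84, 0.37 and 1.48. Reads of 25 to 40 nt gave 1.10, -0.40 and 1.5. Sequences naming no other RNA gave 2.04, 0.55 and 1.49, and an equal split of shared reads 2.44, 0.48 and 1.96. Reads of 22 nt or longer gave 1.58, 0.36 and 1.21, reads of 24 nt 1.98, 0.66 and 1.32, and length-matched rates 0.98, -0.07 and 1.05. So OVER was above CON and RES under every alternative run, and RES against CON turned under 2. The reason for the turns was not tested. Genome-matching reads alone gave 2.55, 0.49 and 2.06.

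The 5′ share in CON, OVER and RES was 81.4%, 95.6% and 89.2% at 25 to 40 nt, and 83.1%, 92.3% and 84.9% in sequences naming no other RNA. The number of tRNAs at least 2-fold apart (32, 9 and 27) stayed within 1.5 times under every alternative, but its direction moved: for OVER against CON 25 were higher and 7 lower by RPM, 14 and 11 by TMM, 11 and 13 by DESeq2, and 3 and 22 at 25 to 40 nt. For RES against CON the numbers were 5 and 4, 5 and 1, 4 and 6, and 1 and 12. For OVER against RES they were 20 and 7, 12 and 10, 10 and 12, and 5 and 16. The median over all tRNAs in OVER against CON was 0.61 by RPM, 0.23 by TMM and -0.09 by DESeq2, and the 4 tRNA-Ala names stayed between 1.59 and 2.25 by the latter pair. For OVER against RES, mature-tRNA-Ala-GGC was at 0.90 by DESeq2, under 2-fold. Depth limits the fragments of 28 nt or more, which rest on 16 to 83 annotated reads.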
